A study of Mus musculus with 5 samples.

Results

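The genes described are the 4 ligands and 2 receptors of the platelet-derived growth factor (PDGF) family: Pdgfa, Pdgfb, Pdgfc, Pdgfd, Pdgfra and Pdgfrb. They were taken by symbol from the gene table of the droplet libraries and make up 6 of its 28692 gene identifiers (28625 symbols); all 6 symbols were found. Their raw unique molecular identifiers (UMIs, each marking 1 captured transcript) were summed by class of cell and by library. The study followed reversible unilateral ureteric obstruction (UUO) in wild-type C57/BL6 mice of 8 weeks, an operation that blocks the urine outflow of 1 kidney and can later be undone. There were 4 droplet libraries: kidneys after a sham operation (day 0), kidneys obstructed for 2 days (UUO day 2), kidneys obstructed for 7 days (UUO day 7) and kidneys collected on day 14 of the experiment, 7 days after the obstruction was undone (reversed UUO). A library held the cells of 3 mice that cannot be told apart, and no time point had a second library. Time points could therefore not be tested against each other, and the 95% intervals given cover counting error only. Kidneys had been digested on ice and live cells sorted with DAPI, a dye that enters dead cells. A further sample held 768 Smart-seq2 wells with all time points mixed.

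PDGF ligands are secreted dimers. Pdgfa and Pdgfb products act once they are processed inside the cell, whereas those of Pdgfc and Pdgfd carry a domain that has to be cut off by proteases outside it. The receptors encoded by Pdgfra and Pdgfrb are tyrosine kinases that pair on ligand binding and drive migration and division of mesenchymal cells. In the kidney the pair of Pdgfb in endothelium and Pdgfrb in neighbouring pericytes and mesangial cells is known for building the glomerular tuft, and both receptors are known on the fibroblasts of scarred kidneys.

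Per the GENCODE annotation of GRCm38, the members are protein-coding genes. Pdgfa (ENSMUSG00000025856) lies at chr5:138976014-138997370 and Pdgfb (ENSMUSG00000000489) at chr15:79995874-80014977, both on the minus strand. Pdgfc (ENSMUSG00000028019) lies at chr3:81036416-81214040, Pdgfd (ENSMUSG00000032006) at chr9:6168584-6378850, Pdgfra (ENSMUSG00000029231) at chr5:75152292-75198215 and Pdgfrb (ENSMUSG00000024620) at chr18:61045150-61085061, all on the plus strand. A further gene of the droplet table overlaps each of Pdgfa (6330403L08Rik), Pdgfc (Gm16000), Pdgfd (Ddi1) and Pdgfra (Gm42802), and how reads of such overlaps were assigned is not stated.

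The libraries held 2739 to 5938 cells with 18649637 to 30462683 UMIs, and 3753 sham, 2157 day 2, 4292 day 7 and 3151 reversed cells were kept. Classes were gated cell by cell on marker genes that do not include the members. Endothelium (Pecam1, Kdr, Cdh5 and others) held 207, 145, 465 and 348 cells in the order sham, day 2, day 7, reversed. Mononuclear phagocytes (Lyz2, Csf1r, C1qa and others) held 53, 436, 1967 and 486, and proximal tubule 2806, 529, 185 and 1085. Mesenchyme, gated on fibroblast markers (Col1a1, Dcn and others) or mural markers (Rgs5, Acta2, Tagln and others), held only 9, 17, 81 and 109 cells. Of 7 clusters that took no class name, 2 were kept apart under their leading genes, a choice made after seeing the data, whatever class the gate gave their cells. The Fst Cryab cluster (50, 65, 45 and 41 cells) had injured-tubule markers at 231, 1660.1, 2353 and 1404 UMIs per 1000000 UMIs of the class (CPM). The Sfrp2 Ptn cluster (25, 11, 11 and 1 cells) carried endothelial markers at 2477 to 6273 CPM, podocyte markers at 185 to 2641 CPM and mesenchymal markers at 369 to 1284 CPM. Between any 2 libraries, 16 to 39 cell barcodes were shared.

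The members were sparse. Over all deposited cells, Pdgfa had 252, 497, 1028 and 961 UMIs, Pdgfb 182, 300, 964 and 549, Pdgfc 151, 99, 143 and 187, Pdgfd 126, 175, 228 and 237, Pdgfra 23, 50, 300 and 153, and Pdgfrb 100, 139, 291 and 285, again in the order sham, day 2, day 7, reversed. These totals follow which cells were recovered as well as what each cell held: in a class sum of a pooled library, fewer cells of a type and less RNA per cell cannot be told apart by the total alone. Levels below are therefore CPM within a class, with the exact Poisson interval in brackets, and changes are log2 ratios of CPM + 1, which understate the change of low genes. A gene counted as measured in a comparison with at least 30 summed UMIs, and a difference of at least 2-fold is set beside the percentage of all measured genes that were as far apart. That percentage is given only where each library held at least 30 cells of the class.

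Pdgfa was counted in tubule, endothelial, phagocyte and mesenchymal classes. Its highest level among classes with at least 30 cells was in the Fst Cryab cluster in all 4 libraries, at 259 CPM [195 to 337] in sham, 56.4 CPM [38.3 to 80.1] at day 2, 128 CPM [93.5 to 170.3] at day 7 and 205 CPM [159 to 259] after reversal. Sham and reversed were high and their intervals overlapped, and day 2 lay apart below all others. The day 2 level was lower than sham by a log2 ratio of -2.18 [-2.85 to -1.52] beside a median of -0.15 over all measured genes, and 13.5% of genes were at least 2-fold apart. Day 7 was higher than day 2 by 1.16 [0.48 to 1.86], where 10.4% of genes were at least 2-fold apart. The mitochondrial share of this cluster's UMIs lay between 5.6 and 6.8% in the 4 libraries. Pdgfa UMIs were found in 44.0%, 33.8%, 51.1% and 53.7% of its cells, or in 18.0%, 4.62%, 17.8% and 17.1% when every cell was thinned to 1000 UMIs. Only in sham was the level in this cluster clear of the class next in order.

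In endothelium Pdgfa stood at 68.1 CPM [47.7 to 94.3] in sham, 53.0 CPM [36.7 to 74.0] at day 2, 84.3 CPM [71.8 to 98.3] at day 7 and 92.8 CPM [78.3 to 109] after reversal. All 4 intervals but that of day 2 against reversal overlapped, and no comparison reached 2-fold; 8.02%, 9.99%, 3.71% and 9.85% of genes did at day 2 against sham, day 7 against day 2, reversal against day 7 and reversal against sham. The Fst Cryab cluster exceeded endothelium 3.80-fold [2.45 to 5.95] in sham and 2.21-fold [1.63 to 2.96] after reversal, but 1.07-fold [0.633 to 1.79] at day 2. Peritubular and arterial endothelium lay above glomerular endothelium from day 7 on: after reversal the levels were 92.97, 137 and 56.8 CPM.

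Tubule segments differed in Pdgfa level and in how it moved. Thick ascending limb cells, which dilute the urine, had 10.8 CPM [4.36 to 22.4] in sham, 35.0 CPM [26.5 to 45.3] at day 2, 52.9 CPM [38.4 to 71.0] at day 7 and 53.8 CPM [40.1 to 70.8] after reversal. The sham library was below the other 3 without overlap of intervals, on 7 UMIs. Day 2 was above sham by a log2 ratio of 1.60 [0.53 to 2.81] and reversal above sham by 2.21 [1.13 to 3.43], where 13.0% and 10.5% of genes were at least 2-fold apart. Mitochondrial UMIs in this segment moved too, at 34.4%, 22.1%, 11.2% and 22.6%, as did the injured-tubule marker list, at 77.5, 3166, 2309 and 657 CPM with 3, 4, 4 and 4 of 5 genes detected and Krt20 at 0 throughout. A cluster of this segment led by Lcn2 held 0, 155, 118 and 97 cells. With mitochondrial UMIs left out of the total the ratios were 1.39 and 2.01, and with a mitochondrial limit of 20% 1.10 and 1.60; the part of the injured-tubule list and of that cluster was not tested. Proximal tubule cells, the main resorbing segment, stayed low at 7.02 CPM [5.42 to 8.95], 12.0 CPM [8.34 to 16.8], 15.4 CPM [8.95 to 24.6] and 11.6 CPM [9.02 to 14.6]. Injured tubule cells, gated on Havcr1, Krt20, Lcn2, Sox9 and Sox4, had 51.5 CPM [39.4 to 66.1] at day 2, 81.2 CPM [68.3 to 95.9] at day 7 and 79.8 CPM [57.7 to 107] after reversal, with no such cells in sham. That is 4.27-fold, 5.29-fold and 6.91-fold above proximal tubule in the same library, with lower bounds of 2.76, 3.19 and 4.62. The injured gate took cells of any tubule segment, and in each of these libraries its interval overlapped that of thick ascending limb.

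Phagocyte Pdgfa was 5.69 CPM in sham (1 UMI), 21.9 CPM [17.9 to 26.5] at day 2, 22.6 CPM [20.1 to 25.4] at day 7 and 35.6 CPM [29.7 to 42.4] after reversal. The reversed library stood above both obstructed ones, and sham was too thinly counted to place. T or NK cells served as a background class, and whether they express the members was not tested. They had 0, 0, 5.27 and 3.11 CPM of Pdgfa. Phagocytes exceeded them 4.29-fold [2.15 to 10.0] at day 7 and 11.4-fold [3.83 to 56.2] after reversal.

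Pdgfb, the ligand that binds both receptors, was highest in endothelium in all 4 libraries among classes with at least 30 cells. Its endothelial level was 138 CPM [108 to 174] in sham, 81.0 CPM [60.5 to 106] at day 2, 92.1 CPM [79.0 to 107] at day 7 and 83.2 CPM [69.6 to 98.8] after reversal. Sham lay above the other 3 libraries, whose intervals overlapped one another, and the reversed level had not returned to that of sham. The log2 ratio was -0.76 [-1.30 to -0.24] at day 2 against sham and -0.72 [-1.14 to -0.29] after reversal against sham, both short of 2-fold, beside medians of -0.06 and 0.03 over all measured genes. The mix of vessels in the class moved too. An endothelial cluster led by Plvap held 68, 38, 262 and 199 cells in the order sham, day 2, day 7, reversed. Those led by Ehd3 and by Cldn5 held 101, 46, 130 and 113 cells and 44, 64, 77 and 45 cells. The part of this mix in the endothelial levels was not tested. In sham, day 2 and day 7 the endothelial interval did not overlap that of the class next in order, and after reversal it overlapped that of mesenchyme. The share of endothelial cells with a Pdgfb UMI was 26.6%, 30.3%, 27.7% and 24.4% at median depths of 2349, 3624, 3437 and 3729.5 UMIs. After thinning to 1000 UMIs it was 12.1%, 8.97%, 7.53% and 6.61%. T or NK cells, with median depths of 1864, 3538, 3504 and 3169.5 UMIs, gave 0%, 4.69%, 5.34% and 2.34%, or 0%, 1.56%, 0.843% and 1.56% when thinned. Platelets carry Pdgfb product in their granules; the platelet marker list had 32.2, 87.2, 21.3 and 24.8 CPM in endothelium, with 3, 4, 3 and 4 of its 5 genes detected and Treml1 at 0 throughout, and its part in the endothelial level was not tested. The phagocyte list in endothelium ran at 36.0, 355, 1975 and 737 CPM, with 5, 8, 9 and 9 of 9 genes detected, and the proximal tubule list at 647, 76.3, 46.3 and 266 CPM, with 8, 7, 7 and 8 of 8; their part in the endothelial levels of Pdgfb and of the other members was not tested.

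Within endothelium, Pdgfb split by vessel after reversal. Glomerular endothelium had 129 CPM [88.1 to 182], 71.3 CPM [35.6 to 128], 117 CPM [84.3 to 157] and 162 CPM [123 to 209.9] in the order sham, day 2, day 7, reversed. Peritubular endothelium had 119 CPM [57.0 to 219], 62.2 CPM [22.8 to 135], 72.5 CPM [55.1 to 93.8] and 24.9 CPM [12.5 to 44.6]. The glomerular level was about that of sham after reversal while the peritubular level was the lowest of the 4 libraries, with an interval that overlapped that of day 2. Glomerular exceeded peritubular cells 1.08-fold [0.52 to 2.47] in sham, 1.61-fold [1.06 to 2.42] at day 7 and 6.49-fold [3.37 to 13.7] after reversal. Arterial endothelium, at 110.1 CPM [71.3 to 163], was also above peritubular cells after reversal, by 4.42-fold [2.10 to 9.94].

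Phagocyte Pdgfb was 45.5 CPM [19.6 to 89.7] in sham on 8 UMIs, 12.6 CPM [9.63 to 16.2] at day 2, 32.4 CPM [29.4 to 35.7] at day 7 and 35.9 CPM [29.9 to 42.7] after reversal. Day 2 was apart from and below the other 3. Day 7 exceeded day 2 by a log2 ratio of 1.30 [0.93 to 1.68] beside a median of 0.03, with 12.0% of genes at least 2-fold apart, but by 0.91, short of 2-fold, with a pseudocount of 10 CPM. Day 2 was below sham by -1.77 [-2.82 to -0.55], where 30.4% of genes were as far apart. At day 2 the phagocyte level was not above that of T or NK cells (0.831-fold [0.396 to 2.01]); it was 2.46-fold [1.57 to 4.07] above it at day 7 and 5.77-fold [2.58 to 16.0] after reversal. The platelet list in phagocytes stood at 0, 55.1, 17.3 and 1.68 CPM, highest at day 2 where Pdgfb was lowest, and the endothelial list at 51.2, 67.1, 172 and 177 CPM; the part of either was not tested. In CPM, endothelium exceeded phagocytes by 3.04-fold [1.46 to 7.29] in sham, 2.84-fold [2.37 to 3.39] at day 7 and 2.32-fold [1.80 to 2.98] after reversal. No fold is given at day 2, where the phagocyte level was not above that of T or NK cells.

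Among phagocytes at day 7 and after reversal, Pdgfb was higher in C1q macrophages, a resident-type population named for complement C1q genes. They had 114 CPM in sham on 7 UMIs, 19.9 CPM [13.7 to 28.0] at day 2, 37.4 CPM [33.2 to 42.0] at day 7 and 38.7 CPM [30.9 to 48.0] after reversal. Ly6c2 monocytes, the recently recruited cells, had 0, 2.58, 4.81 and 4.66 CPM on at most 5 UMIs. At day 2 the C1q interval overlapped that of the T or NK background (15.2 CPM [6.55 to 29.9]) and the Ly6c2 level lay below it, so neither is read as expression there. C1q cells were clear of that background at day 7 (13.2 CPM [8.05 to 20.4]) and after reversal (6.22 CPM [2.28 to 13.5]). Ly6c2 cells lay below it in those libraries as well, so no fold over their level is given. C1q cells exceeded type 2 dendritic cells 2.99-fold [1.45 to 7.16] after reversal, while at day 7 the dendritic level also lay below the background. The mix of phagocytes differed between libraries, with 117 C1q and 136 Ly6c2 cells at day 2 and 1231 and 156 at day 7. For Pdgfa the C1q and Ly6c2 classes were close at day 2 (24.2 and 21.5 CPM, 1.12-fold [0.665 to 1.93]). At day 7 they had 27.3 and 4.81 CPM, but the Ly6c2 level was below that of T or NK cells (5.27 CPM), so no fold is given.

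Tubule Pdgfb was higher in injured cells than in proximal tubule at day 7 and after reversal. Principal cells of the collecting duct had 2.83, 4.61, 31.1 and 9.25 CPM, the day 7 level [18.7 to 48.6] on 19 UMIs, and thick ascending limb had 4.65, 11.7, 12.02 and 10.6 CPM. Proximal tubule had 5.51 CPM [4.10 to 7.24], 15.2 CPM [11.0 to 20.5], 16.3 CPM [9.64 to 25.7] and 6.83 CPM [4.93 to 9.24], with both obstructed libraries above sham and reversal. Day 2 was above sham by a log2 ratio of 1.32 [0.76 to 1.86] and reversal below day 7 by -1.14 [-1.90 to -0.33], beside medians of 0.25 and -0.20, with 9.62% and 9.04% of genes at least 2-fold apart. At day 2 the proximal tubule level was that of the T or NK background (15.2 CPM in both), and it was close to it at day 7 (16.3 and 13.2 CPM) and after reversal (6.83 and 6.22 CPM). These levels and the ratios between them are therefore not read as expression. The same holds for thick ascending limb at day 2 and day 7 and principal cells at day 2, which lay below the background, and after reversal the intervals of both overlapped it. Injured tubule had 20.2 CPM [13.0 to 30.1] at day 2, overlapping proximal tubule and the background, 53.8 CPM [43.3 to 65.9] at day 7 and 52.0 CPM [34.5 to 75.1] after reversal. Day 7 exceeded day 2 by 1.37 [0.73 to 2.04], where 8.40% of genes were at least 2-fold apart. At day 7 and after reversal the intervals of injured cells were clear of those of proximal tubule and of the background. No fold over proximal tubule is given, since its level was close to the background. At day 2 intercalated cells, at 0.857 CPM [0.0217 to 4.77], lay clear below T or NK cells. Whether the T or NK level is free RNA or transcript of those cells was not tested. Levels near it are therefore left unread and not called absent.

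Pdgfc had too few UMIs in most classes for a comparison. Among sham classes with at least 30 cells its highest levels were in thick ascending limb and proximal tubule. Thick ascending limb had 31.0 CPM [18.9 to 47.9], 16.6 CPM [10.9 to 24.1], 16.8 CPM [9.20 to 28.2] and 20.1 CPM [12.1 to 31.3], all overlapping. Proximal tubule had 7.99 CPM [6.27 to 10.03], 6.38 CPM [3.78 to 10.1], 12.6 CPM [6.91 to 21.2] and 10.3 CPM [7.88 to 13.1], also overlapping. In sham the thick ascending limb was clear of the proximal tubule. Phagocytes had 0 UMIs in sham, 1 at day 2, 43 at day 7 (3.32 CPM) and 15 after reversal (4.20 CPM), and 35 of the 43 were in C1q cells. Their day 7 to day 2 log2 ratio was 1.84 [0.93 to 2.13], where 12.0% of genes were at least 2-fold apart, or 0.38 with a pseudocount of 10 CPM. Endothelium had 1, 12, 14 and 8 Pdgfc UMIs, or 1.89, 18.7, 7.29 and 5.08 CPM.

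Pdgfd, whose product acts through the receptor encoded by Pdgfrb, was highest in endothelium in all 4 libraries among classes with at least 30 cells. The levels were 98.4 CPM [73.5 to 129] in sham, 84.1 CPM [63.2 to 109.7] at day 2, 44.2 CPM [35.3 to 54.7] at day 7 and 47.7 CPM [37.5 to 59.7] after reversal. Sham and day 2 formed a higher pair and day 7 and reversal a lower pair, with no overlap between the pairs. The phagocyte list given for endothelium above was also lowest in sham and highest at day 7. The endothelial cluster led by Plvap held fewer cells in the first pair (68 and 38) than in the other (262 and 199), and its part was not tested. Pdgfd was the endothelial member that passed 2-fold, by a narrow margin. Reversal was below sham by a log2 ratio of -1.03 [-1.55 to -0.50] (0.49-fold), where 9.85% of all measured genes were at least 2-fold apart. With a pseudocount of 10 CPM the ratio was -0.91 and with per-cell means -0.96, both short of 2-fold. Day 7 was below day 2 by -0.91 [-1.41 to -0.40]. Against T or NK cells, endothelium was 33.6-fold [9.01 to 282] higher at day 7 and 23.0-fold [6.14 to 193] after reversal. Arterial endothelium had 154 CPM in sham on 14 UMIs and 17.3 CPM at day 7 on 5, while glomerular endothelium had 92.6, 90.7, 67.8 and 59.7 CPM. Thick ascending limb had 21.7, 26.4, 31.3 and 30.6 CPM; its interval was clear of endothelium in sham and day 2 and overlapped it in the later libraries. At day 7 the Fst Cryab cluster, at 33.3 CPM on 12 UMIs, came between them.

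**Figure D1:**
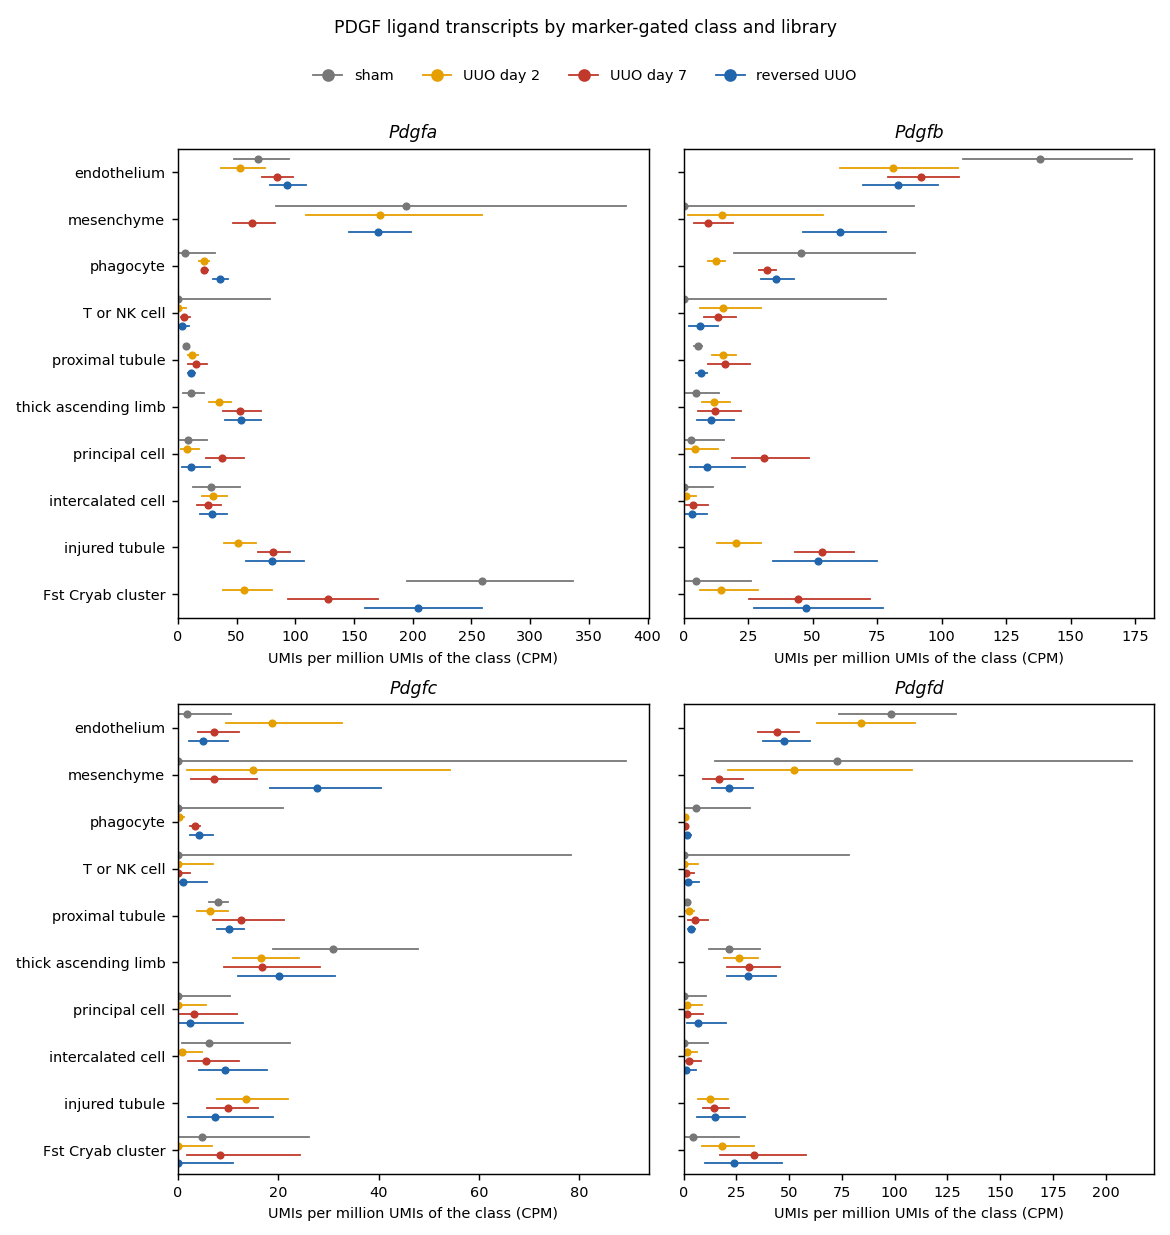
Levels of the 4 ligand genes (CPM, horizontal axes that differ by panel) for 10 classes of cells, 1 point per library with its exact 95% Poisson interval. Pdgfb and Pdgfd are highest in endothelium, where sham is at 138 and 98.4 CPM, and Pdgfa is highest in the Fst Cryab cluster apart from the thinly counted mesenchyme (9 cells in sham, 17 at day 2).

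Pdgfra, the receptor that marks fibroblasts, was counted mainly in mesenchyme at day 7 and after reversal, and in sham mainly in the Sfrp2 Ptn cluster described below. Mesenchyme had 0 UMIs in sham, 180.0 CPM [115 to 268] at day 2, 255 CPM [222 to 292] at day 7 and 139.8 CPM [117 to 165] after reversal. With only 9 mesenchymal cells, a floor of 3 UMIs in the sham library stands at 72.7 CPM. The later levels, taken as point values, were 2.48-fold, 3.51-fold and 1.92-fold that floor, which are not lower bounds. For reversal against sham the counting interval of the log2 ratio began at 0.62, or at 0.25 without the sham cell gated as neither fibroblast nor mural. No sham mesenchymal cell was gated as a fibroblast, so these folds set different kinds of cells side by side. Of the summed CPM over classes with at least 30 cells, which leaves out the Sfrp2 Ptn cluster, mesenchyme held 97.2% at day 7 and 98.1% after reversal. Of all genes measured so, 13.7% and 13.8% had at least 50% of their summed level in 1 class. Endothelium had 0, 0, 2 and 0 Pdgfra UMIs and T or NK cells 0, 0, 1 and 0.

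Within mesenchyme, nearly all Pdgfra UMIs were in cells gated as fibroblasts: 24 of 24 at day 2, 209 of 211 at day 7 and 134 of 136 after reversal. These cells numbered 0, 5, 72 and 58, and had 480.1 CPM [308 to 714] at day 2, 289.6 CPM [252 to 332] at day 7 and 299.6 CPM [251 to 355] after reversal. Day 7 and reversal were alike within their intervals. Mural-gated cells, 8, 12, 5 and 46 of them, had 0 Pdgfra UMIs in all 4 libraries. The mesenchymal log2 ratio of reversal to day 7, -0.86 [-1.18 to -0.55], was short of 2-fold, but past it with TMM (-1.01) and DESeq2 (-1.05) scaling. Without the mural-gated cells with Wt1 or Ncam1 described next, in both libraries, it was -0.17 [-0.49 to 0.15]; 13.5% of genes were at least 2-fold apart in that comparison.

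Those 29 mural-gated cells of the reversed library had a UMI of Wt1 or Ncam1 and differed from the others in part of the mural list. Their Rgs5, Notch3 and Myh11, defining genes of pericytes and smooth muscle, stood at 63.8, 5.10 and 33.2 CPM, against 5981, 355 and 2173 CPM in the other 17. Acta2 and Tagln were high in both, at 2509 and 4463 CPM in the 29 and 10047 and 3550 CPM in the 17. Des and Cspg4 were present in both too, at 286 and 81.6 CPM in the 29 and 237 and 151 CPM in the 17. All 54 mural-gated Pdgfb UMIs after reversal were in the 29 cells, at 138 CPM [103 to 179.7], and the 17 had 0, where the floor of 3 UMIs stands at 32.3 CPM. Pdgfrb was lower in the 29, at 81.6 CPM [55.8 to 115] against 279.7 CPM [183 to 409.8] (0.292-fold [0.168 to 0.510]), as was Pdgfa, at 153 CPM [117 to 197] against 323 CPM [218 to 461] (0.474-fold [0.301 to 0.761]). At day 7, 2 mural-gated cells had a Wt1 or Ncam1 UMI. Where mesenchyme at reversal against day 7 is given with and without such cells, the second value leaves out the 29 and these 2.

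Pdgfrb, the receptor of pericytes and mesangium, was shared by fibroblasts and mural cells. Mesenchyme had 363 CPM [203 to 599.5] in sham on 15 UMIs, 225 CPM [152 to 321] at day 2, 199.5 CPM [170.2 to 232] at day 7 and 154 CPM [131 to 181] after reversal. The reversed level lay below that of sham by a log2 ratio of -1.23 [-1.997 to -0.36], but the make-up of the class differed, with 8 of 9 sham cells mural-gated and none gated as a fibroblast. Only 3 of the 9 had a Pdgfrb UMI, and the 1 cell gated as neither held 7 of the 15; without it sham stood at 250.5 CPM and the ratio was -0.70 [-1.71 to 0.53]. The ratio was short of 2-fold with per-cell means (-0.13), without doublet removal (-0.71), with TMM (-0.81) and DESeq2 (-0.96) scaling and without the 29 Wt1 or Ncam1 cells (-0.84). Fibroblasts had 220.0 CPM at day 2 on 11 UMIs, 197 CPM [166 to 232] at day 7 and 177 CPM [139.8 to 220.1] after reversal. Mural-gated cells without Wt1 or Ncam1 had 250.5, 228, 291 and 279.7 CPM, the day 7 value on 3 cells. No order in time was seen within either cell type beyond the counting intervals.

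The Sfrp2 Ptn cluster was the main holder of both receptors in sham. It had 649.7 CPM [500.3 to 829.6] of Pdgfrb in sham, 628 CPM [459.9 to 838] at day 2 and 408 CPM [289 to 559.9] at day 7, and 9 UMIs in its single reversed cell. Pdgfra stood at 203 CPM [124 to 314], 178 CPM [94.5 to 304] and 172 CPM [98.2 to 279] in the first 3 libraries. Its Pdgfd was 142 CPM in sham on 14 UMIs. Of the mesenchymal list, Dcn, Lum, Dpt, Tagln and Myh11 were at 0 UMIs in those libraries, while the mural list, with 5 of its 7 genes detected (Rgs5, Acta2, Notch3, Cspg4 and Des), stood at 1188, 1093 and 623 CPM. Endothelial markers, all 9 of 9, were present in the same cells, 20 of which the gate had called endothelium. Their part in the receptor levels was not tested.

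**Figure D2:**
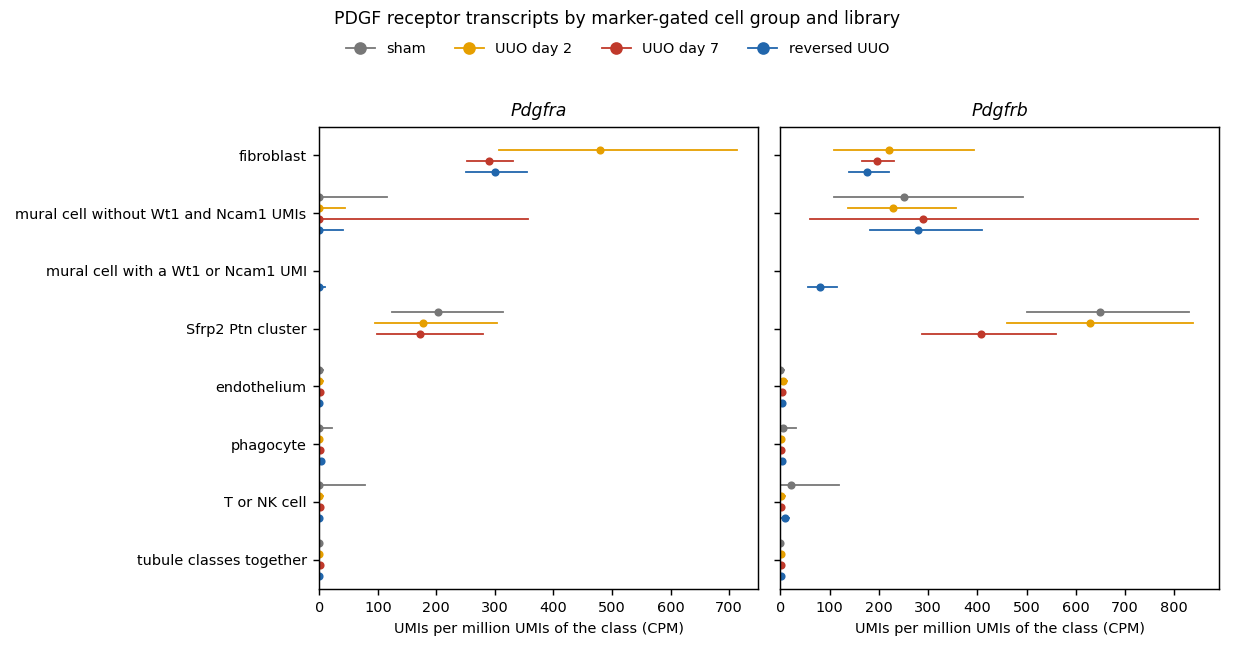
Levels of Pdgfra and Pdgfrb (CPM, horizontal axes) by group of cells and library, with exact 95% Poisson intervals; mesenchyme is split into fibroblasts and mural-gated cells without and with Wt1 or Ncam1. Fibroblasts and the small Sfrp2 Ptn cluster hold both receptors, mural-gated cells hold Pdgfrb with Pdgfra at 0, and endothelium, phagocytes, T or NK cells and tubule classes lie near 0.

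Both receptors were often found in the same fibroblast. At day 7, 61 of 72 fibroblasts (84.7%) had a Pdgfra UMI, 54 (75.0%) a Pdgfrb UMI and 48 both (66.7% [54.6 to 77.3]). After reversal the counts were 47 (81.0%), 41 (70.7%) and 33 of 58 (56.9% [43.2 to 69.8]). Thinned to 1000 UMIs a cell, 7 of 72 (9.72%) and 2 of 58 (3.45%) had both, so the shares depend on depth, and the median mesenchymal cell had 8986 and 7064 UMIs. In T or NK cells, at 3504 and 3169.5 UMIs, 2 of 356 and 4 of 256 had a Pdgfrb UMI and 1 and 0 a Pdgfra UMI. Among mural-gated cells, Pdgfrb was found in 2 of 8, 10 of 12, 4 of 5 and 25 of 46 and Pdgfra in none, which after reversal allows up to 7.71% of cells with a UMI, a limit on detection and not on cells that express the gene. In the Sfrp2 Ptn cluster, 11 of 25, 6 of 11 and 7 of 11 cells had both.

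**Figure D3:**
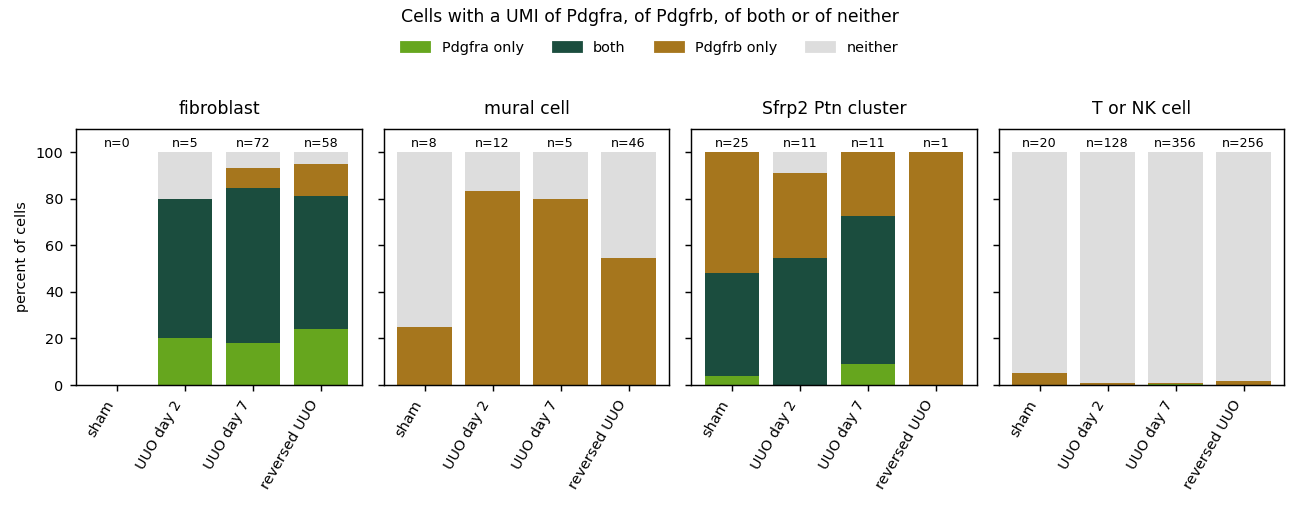
Percent of cells with a UMI of Pdgfra, of Pdgfrb, of both or of neither in fibroblasts, mural-gated cells, the Sfrp2 Ptn cluster and T or NK cells of each library, unthinned, with the number of cells above each bar. Fibroblasts mostly hold both (66.7% at day 7), mural-gated cells hold Pdgfrb without Pdgfra, and T or NK cells hold almost neither.

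Mesenchyme also carried ligands. Pdgfa had 194 CPM [83.7 to 382] in sham on 8 UMIs, 172 CPM [109 to 259] at day 2, 62.9 CPM [47.0 to 82.4] at day 7 and 171 CPM [146 to 199] after reversal. Day 7 alone was low, without overlap with the others, but 8 of 9 sham cells and 12 of 17 day 2 cells were mural-gated and 72 of 81 day 7 cells gated as fibroblasts. The day 7 to day 2 ratio of -1.44 was -0.38 with classes from clusters, where mesenchyme is 1 fibroblast cluster of 0, 5, 78 and 59 cells, since the cluster led by Tagln, Acta2 and Rgs5 took no class name. Reversal exceeded day 7 by a log2 ratio of 1.43 [0.97 to 1.90] beside a median of 0.14 over all measured genes, and by 1.5 [1.01 to 2.01] without the Wt1 or Ncam1 cells of both libraries. In fibroblasts taken alone the levels were 80.02 CPM at day 2 on 4 UMIs of 1 cell, 49.9 CPM [34.9 to 69.1] at day 7 and 156 CPM [122 to 198] after reversal. The 36 UMIs of day 7 were in 19 of 72 cells and the 70 UMIs of reversal in 20 of 58. Fibroblasts were thus below endothelium of the same library at day 7 (0.592-fold [0.400 to 0.853]) and above it after reversal (1.69-fold [1.25 to 2.26]). Mesenchymal Pdgfb had 0, 2, 8 and 59 UMIs, or 60.7 CPM [46.2 to 78.2] after reversal against 9.67 CPM [4.18 to 19.1] at day 7 (2.53 [1.53 to 3.65]). Without the Wt1 or Ncam1 cells of both libraries it rested on 5 UMIs in each, with a ratio of 0.41 [-1.40 to 2.17]. With the 29 left out of the reversed library alone the ratio was -0.15 [-1.83 to 1.45], so no direction is read from it. In that comparison 3 of the 6 members, Pdgfa, Pdgfb and Pdgfc, were at least 2-fold higher, against 8.14% of all measured genes (13.5% in either direction). Of these, Pdgfb was short of 2-fold with classes from clusters (0.71) and without the Wt1 or Ncam1 cells (0.41), and Pdgfc with per-cell means (0.96). Pdgfd, with a ratio of 0.33, was more than 2-fold lower with classes from clusters (-1.30). Pdgfc, at 7.25 and 27.8 CPM, had a ratio of 1.80 [0.60 to 3.10] on 6 and 27 UMIs, 1.94 [0.22 to 3.61] without the Wt1 or Ncam1 cells of both libraries and 1.14 [-0.33 to 2.63] without the 29 alone.

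**Figure D4:**
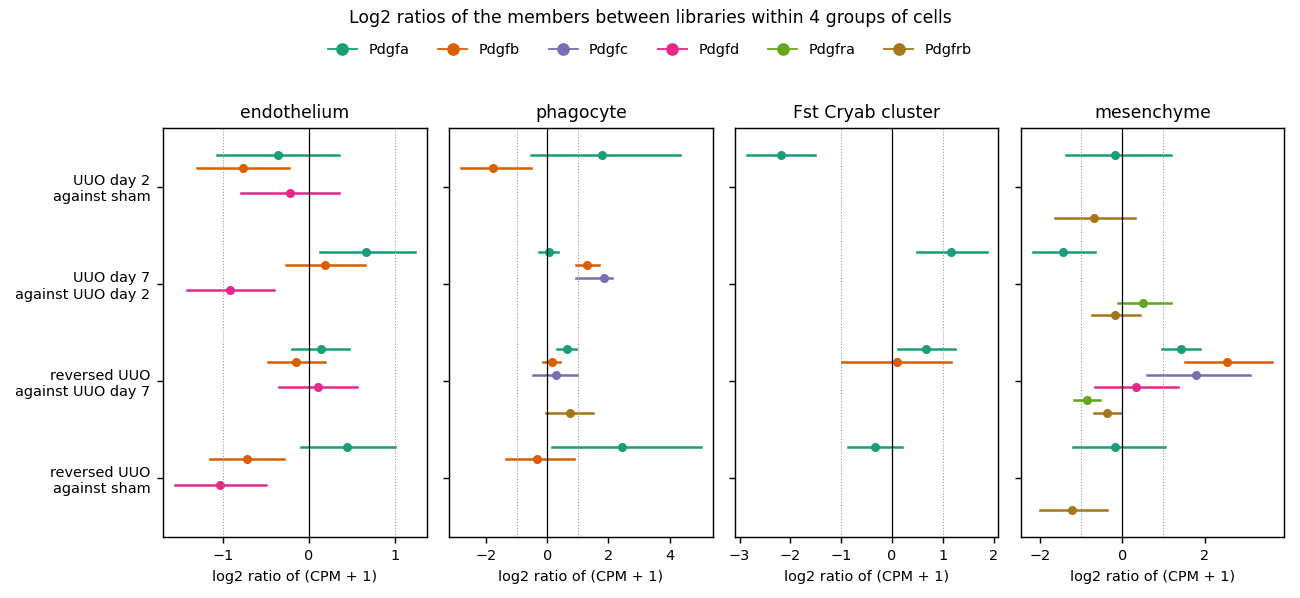
Log2 ratios of CPM + 1 between libraries for members with at least 30 summed UMIs, in endothelium, phagocytes, the Fst Cryab cluster and mesenchyme, with 95% counting intervals; dotted lines mark 2-fold and the horizontal axes differ by panel. Endothelial Pdgfb and Pdgfd lie below 0 after reversal against sham (-0.72 and -1.03), and mesenchymal Pdgfb lies at 2.53 for reversal against day 7, a value that is 0.41 without the mural-gated Wt1 or Ncam1 cells of both libraries.

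The classes that held most UMIs changed with the cells recovered. Of the Pdgfb UMIs in gated cells, endothelium held 51.8% [43.2 to 60.3] in sham, 22.7% [17.4 to 28.7] at day 2, 22.3% [19.4 to 25.4] at day 7 and 30.4% [26.1 to 35.0] after reversal. Phagocytes held 5.67% [2.48 to 10.9], 26.6% [21.0 to 32.9], 52.9% [49.4 to 56.4] and 29.7% [25.4 to 34.3]. Their day 2 level was not above that of T or NK cells (12.6 and 15.2 CPM), so the day 2 share is not read as expression. Phagocytes were 1.52%, 23.7%, 54.2% and 17.7% of gated cells and endothelium 5.96%, 7.87%, 12.8% and 12.7%, so at day 7 the phagocyte share of Pdgfb was close to their share of cells while endothelium held more than its share. Of Pdgfa UMIs, phagocytes held 0.495%, 26.6%, 35.3% and 17.6% and proximal tubule 32.2%, 8.54%, 2.05% and 9.82%. The Fst Cryab cluster held 27.2% [21.2 to 33.9] of sham Pdgfa with 1.44% of the cells. Of Pdgfc UMIs, proximal tubule held 69.2%, 22.5%, 11.3% and 42.0%, and of Pdgfd UMIs, endothelium held 51.5%, 37.0%, 45.0% and 42.6%. Proximal tubule made up 2806, 529, 185 and 1085 of the 3753, 2157, 4292 and 3151 kept cells. Its shares of Pdgfa and Pdgfc UMIs thus follow its cell numbers as well as its levels.

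For the receptors, the Sfrp2 Ptn cluster gave way to mesenchyme. The cluster held 90.9% [70.8 to 98.9] of sham Pdgfra on 20 of 22 UMIs, then 32.5%, 6.30% and 0%, and mesenchyme 0 of 22 UMIs, 24 of 40, 83.1% and 92.5%. Of Pdgfrb, the cluster held 77.1% [66.6 to 85.6], 50.5%, 15.8% and 4.48%, and mesenchyme 18.1%, 33.0%, 68.8% and 74.6%. The cluster was 0.719%, 0.597%, 0.303% and 0.0364% of gated cells and mesenchyme 0.259%, 0.922%, 2.23% and 3.97%. Ungated cells held a further 12.6%, 9.0%, 5.88% and 18.6% of the Pdgfrb UMIs of kept cells.

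**Figure D5:**
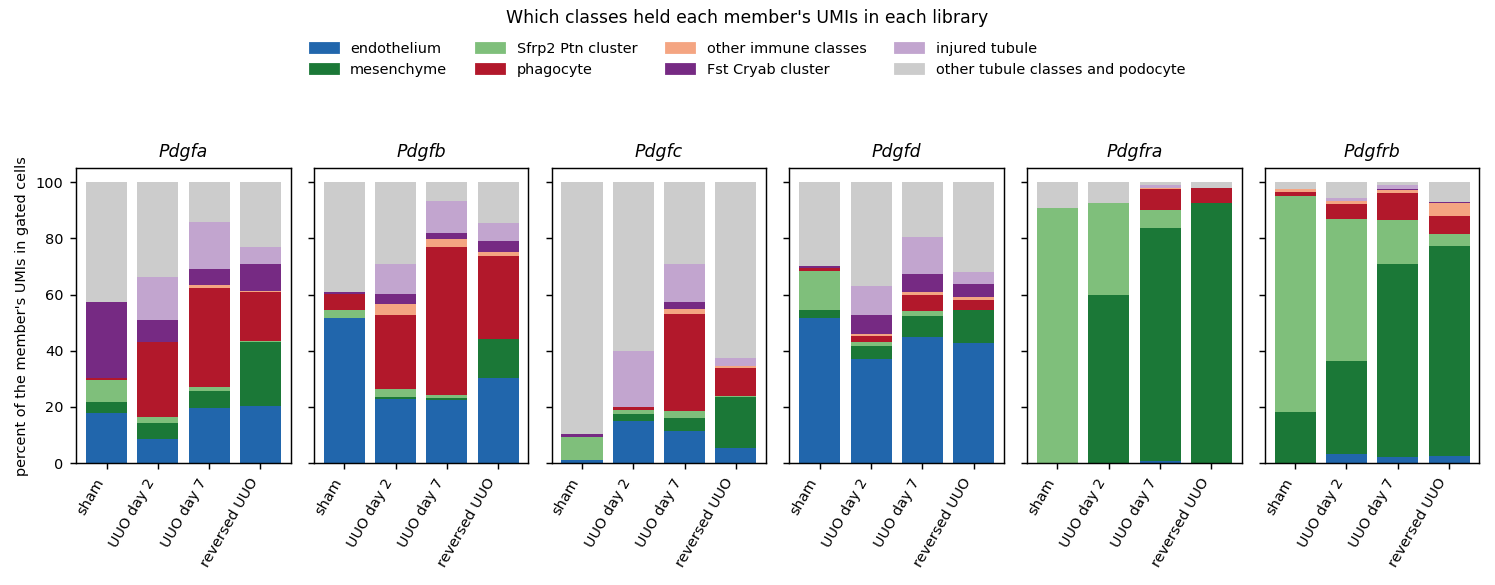
Percent of each member's UMIs in gated cells that came from each class, by library. The largest share of Pdgfb is in endothelium in sham (51.8%) and in phagocytes at day 7 (52.9%). That of Pdgfra is in the Sfrp2 Ptn cluster in sham (90.9%) and in mesenchyme after reversal (92.5%). Shares follow the cells recovered as well as their levels. At day 7 the Pdgfb level was 92.1 CPM in endothelium and 32.4 CPM in phagocytes.

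Other genes of the pathway were taken from a list of 30. It held co-receptors and binding proteins, proteases that process the ligands, adaptors and effectors, phosphatases and ubiquitin ligases, feedback inhibitors, and early target genes. The early genes Egr1 and Fos were higher after reversal against sham in endothelium, phagocytes, proximal tubule and thick ascending limb alike. Whether PDGF signalling moved any list gene was not tested. In endothelium at day 2 against sham, 2 of 21 measured genes were at least 2-fold higher, Ptprj (1.80 on 27 against 6 UMIs), a receptor phosphatase, and the early gene Fos (1.67 [1.09 to 2.27]). Nrp1, a PDGF co-receptor, was lower by -1.05 [-1.20 to -0.90], but with TMM and DESeq2 scaling 3 genes were higher and none lower. The background was 8.02% of genes, and the list's median was 0.22 beside -0.06 over all genes. After reversal against sham, 4 of 24 were at least 2-fold higher (Pik3r1 1.19, Ptpn11 1.08, Egr1 2.68 and Fos 3.17) and none lower, with 9.85% of genes as far apart in either direction; the list's median was 0.31 beside 0.03. At day 7 against day 2, Spry2, a feedback inhibitor, and Egr1 were higher (1.56 on 39 against 4 UMIs, and 1.22) and Ptprj lower (-1.29), 3 of 25 beside 9.99% of genes. At reversal against day 7, Fos (1.19 [1.03 to 1.36]) was the 1 of 26 that passed, beside 3.71% of genes.

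In mesenchyme at reversal against day 7, Fos (1.22) and Srf (1.47 on 31 against 9 UMIs) were at least 2-fold higher. Lrp1, a co-receptor of Pdgfrb, was lower by -1.01 and Sparc, a matrix protein that binds PDGF, by -1.59 [-1.66 to -1.53], so 4 of 26 list genes passed 2-fold beside 13.5% of genes. The make-up of the class moved as well, with the fibroblast list at 30811 CPM at day 7 and 5865 CPM after reversal and the mural list at 2186 and 6029.9 CPM, and its part in these ratios was not tested. In phagocytes at day 7 against day 2, Sparc (1.91 [1.59 to 2.25]) and Sos1 (1.12) were higher and Myc (-1.44 [-1.73 to -1.15]) lower, 3 of 29, with 12.0% of genes as far apart. The fibroblast marker list in phagocytes stood at 9.08 CPM at day 2 and 100.3 CPM at day 7, and its part in Sparc was not tested. At reversal against day 7 in phagocytes, Egr1 (1.32 [1.20 to 1.43]) and Fos (1.14) were higher, 2 of 27, beside 3.49% of genes. At day 2 against sham, 6 of 25 were higher (Lrp1, Sparc, Ptpn11, Fos, Myc and Srf) and Pik3ca lower, beside 30.4% of genes, with a list median of 0.20 and the same over all genes. After reversal against sham, 9 of 24 were higher and none lower, beside 19.4% of genes higher; Fos (2.22) and Egr1 (1.96) had 46 and 13 UMIs in sham, and Lrp1, Furin, Sparc, Plat, Plau, Ptpn11 and Srf had 0 to 10.

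In proximal tubule at day 2 against sham, 8 of 26 were higher and none lower, beside 8.20% of genes higher: Nrp1 (1.61 [1.18 to 2.03]), Sparc, Plau, Pik3r1, Egr1, Fos, Myc (2.45 [1.69 to 3.08]) and Ier2. At day 7 against day 2, 7 of 23 were higher, beside 6.92%: Sparc, Plat, Ptpn1, Cbl, Egr1, Fos and Ier2. At reversal against day 7, 1 of 27 was higher (Lrp1, on 34 against 2 UMIs) and 2 lower, Nrp1 (-1.31) and Myc (-2.17), beside 9.04% in either direction. After reversal against sham, 8 of 26 were higher, beside 8.89%: Nrp1, Lrp1, Sparc (2.58 [2.25 to 2.92]), Plat, Plau, Egr1 (3.25), Fos (3.19) and Ier2. The make-up of the class moved as well. A proximal tubule cluster led by Fgg and Fga held 7, 441, 55 and 67 cells in the order sham, day 2, day 7, reversed. Another, led by Spp2 and Gpx3, held 1015, 12, 3 and 155, and the part of this in the list counts was not tested. Mitochondrial UMIs of this class were 34.2%, 24.6%, 20.8% and 29.5%. With them left out of the total, 8, 7, 1 and 8 list genes were higher in these comparisons, beside 6.18%, 5.99%, 3.87% and 8.33% of all genes. With a pseudocount of 10 CPM only 2, 2, 1 and 4 list genes were past 2-fold in either direction, in place of 8, 7, 3 and 8. With TMM scaling 5, 4, 1 and 6 list genes were higher, beside 4.49%, 3.98%, 4.28% and 5.52%. Of all genes past 2-fold at day 2 against sham, 85.2% were higher, or 71.9% without mitochondrial UMIs and 58.4% with TMM, and at reversal against day 7 the shares were 26.0%, 45.2% and 54.4%. Sparc in T or NK cells stood at 11.4, 59.98 and 46.7 CPM at day 2, day 7 and reversal, against 26.2, 57.8 and 54.7 CPM in proximal tubule, so it is not read as proximal tubule expression from day 7 on.

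In thick ascending limb after reversal against sham, 7 of 19 were higher and none lower, beside 8.70% of genes higher: Nrp1 (1.21), Sparc, Grb2 (1.30), Spry2 (1.09), Egr1 (3.16 [1.97 to 4.52]), Fos (3.44 [2.69 to 4.28]) and Ier2 (2.16). With TMM scaling or without mitochondrial UMIs, 5 were higher, beside 5.04% and 5.36%, and the share of all genes past 2-fold that were higher was 57.5% and 59.5% in place of 82.9%. Sparc, at 32.7 CPM, lay below its T or NK level there. At day 2 against sham, 2 of 20 were higher (Ptpn1 and Egr1), beside 13.0% of genes in either direction; at day 7 against day 2, 2 of 22 (Sparc and Fos), beside 8.57%; and at reversal against day 7, 4 of 20 (Plau, Egr1, Fos and Ier2), beside 7.27%. In T or NK cells at day 7 against day 2, 5 of 24 were higher (Sparc, Plat, Pik3ca, Rasa1 and Spry2) on 2 to 11 day 2 UMIs each, beside 9.69%; with TMM scaling 2 were. At reversal against day 7, Plcg1 was higher and Furin lower, of 25 genes, beside 5.23% in either direction.

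In the other tubule classes the list is given by its counts, beside the share of all genes past 2-fold in either direction. Injured tubule had 3 of 26 higher at day 7 against day 2 (Plat, Sos1 and Pik3ca), beside 8.40%, or 1 with TMM scaling. At reversal against day 7 it had Fos and Ier2 higher and Plau lower, beside 6.57%, or 1 higher and 1 lower with TMM scaling. The Fst Cryab cluster had 1 higher (Plat) and 1 lower (Fos) of 16 at day 2 against sham, beside 13.5%, which became 4 and 0 with TMM scaling. At day 7 against day 2 it had 4 higher (Nrp1, Plau, Cbl and Egr1) and 3 lower (Plat, Spry1 and Spry2) of 18, beside 10.4%, or 2 and 3 with TMM. It had 1 higher and 1 lower of 17 at reversal against day 7, beside 7.07%, and 2 higher and 1 lower of 13 at reversal against sham, beside 7.31% of genes higher and 7.73% lower. Principal cells, in the order day 2 against sham, day 7 against day 2, reversal against day 7 and reversal against sham, had 2 of 13, 3 of 19, 1 of 16 and 1 of 11 past 2-fold, beside 17.8%, 8.84%, 6.96% and 7.72%. Of these, Ier2 in the first and Nrp1, Sparc and Rasa1 in the second were higher, and Pik3ca in the first and last and Sparc in the third lower. With TMM scaling, principal cells at day 7 against day 2 had 2 higher and 1 lower. At reversal against day 7 they had 0 past 2-fold with TMM or DESeq2 scaling or without mitochondrial UMIs. Intercalated cells, which secrete acid or base, had 1 of 16, 2 of 20, 2 of 20 and 5 of 17, beside 13.6%, 5.47%, 5.94% and 10.8%, all higher but Ptpn2 in the last; without mitochondrial UMIs the first had none higher and 2 lower.

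Genes whose profile over 39 class-and-library sums was most like that of a member were found by Pearson's correlation of log2 CPM among 13196 genes, as a description. Pdgfra was closest to Prrx1 (0.96), Srpx (0.96) and Srpx2 (0.95), and Pdgfrb to Ptgis (0.89), Foxd1 (0.87) and Mmp3 (0.86). Pdgfb was closest to Csf1 (0.82), Nrp1 (0.81) and Msn (0.81), Pdgfa to Ift43 (0.84), Vat1 (0.83) and Cryzl1 (0.82), Pdgfd to 1810011O10Rik (0.84), Selm (0.83) and Vangl1 (0.83), and Pdgfc to Nhs (0.69), Lysmd4 (0.63) and Gas6 (0.61). Among the members, Pdgfra and Pdgfrb were most alike (0.84), then Pdgfa and Pdgfd (0.65) and Pdgfb and Pdgfd (0.64). The profiles of 1 library share cells' depth and free RNA, and only 2 of the 18 named genes were named again when profiles of at least 10 cells were used.

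In the Smart-seq2 sample, where wells carry no time point in the labels and reads have no molecular identifiers, 236 of 768 wells (30.7%) had at least 1 Pdgfb read, 64 (8.33%) Pdgfa, 40 Pdgfrb, 21 Pdgfc, 10 Pdgfra and 2 Pdgfd. Nearly every well held phagocyte genes, with Lyz2 in 768 and Csf1r in 760 wells. At 10 reads or more, 57 wells had Pdgfb.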

How the data were processed

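Raw UMI counts per gene and cell were deposited by the authors for 4 droplet libraries and raw read counts per gene and well for the Smart-seq2 sample; the submitters' processing notes name Cell Ranger and STAR and the build GRCm38 (mm10), without versions. For the Smart-seq2 sample, the labels give the droplet protocol again. The members, marker lists, pathway list and alternatives were chosen with earlier results of these data known, and details of the gate were set after seeing the data.

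Cells were dropped below 200 genes or above 50% mitochondrial UMIs. The automatic Scrublet threshold marked 1, 1, 2 and 3 cells and had not worked, so 180, 50, 155 and 85 top-scoring cells were taken out (0.8% for every 1000 cells in the matrix). Per cell, the share of UMIs in each class's marker list, less the library's baseline, was divided by its reference value. The highest class was taken with a score of at least 0.15, at least 3 markers detected and 2-fold over the runner-up. The distal convoluted tubule list of 3 genes and the subclasses needed 2 markers. Cells of a tubule class or of none were called injured tubule with at least 3 injured-tubule markers. They also had to score below 0.15 for every class outside the tubule. A phagocyte subclass is not reported here. The 2 clusters named by leading genes came from Leiden clustering. Proximal tubule markers in immune cells, a measure of free RNA, stood at 11.9%, 10.0%, 18.1% and 12.7% of their level over the whole library.

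Counts were summed by class and library and scaled to CPM. Intervals are exact Poisson (levels), Clopper-Pearson (shares) and conditional binomial (ratios, pseudocount 1 CPM), all 95%; the floor for a count of 0 was 3 counts per library. Named are the 6 members, pathway list genes at least 2-fold apart, the 3 genes most like each member among those with at least 100 UMIs, and class markers. Libraries were grouped by the labels. Alternatives were a mitochondrial limit of 20%, clusters in place of gates, at least 4 markers, subtraction of free RNA, per-cell means, other scalings, a pseudocount of 10 CPM and minimums of 10 and 1 UMIs. No edgeR or DESeq2 test was run on these counts, because each group holds 1 library; edgeR 4.0.16 (TMM) and DESeq2 1.42.0 gave size factors alone. The ratio code was tested on simulated data. Clustering used scanpy 1.11.5 and leidenalg 0.10.2, figures matplotlib 3.10.9, and the rest pandas 2.3.3, scipy 1.17.1 and numpy 2.4.6 under Python 3.11.15, with R 4.3.3 for the factors.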

Additional observations from a re-analysis of the deposited data

Results flagged for a closer look

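In the following cases the same contrast gave opposite directions in 2 classes of cells, with intervals on either side of 0; none of these class differences was tested, since each time point has 1 library. At day 2 against sham, Pdgfa had a log2 ratio of -2.18 in the Fst Cryab cluster but 0.70 in proximal tubule, a difference of 2.88, and 1.60 in thick ascending limb, a difference of 3.78. Pdgfb in the same contrast was 1.32 in proximal tubule but -0.76 in endothelium (difference 2.08) and -1.77 in phagocytes (3.09). The day 2 level of proximal tubule was no higher than that of T or NK cells (15.2 CPM in both) and is not read as expression. Phagocytes at day 2 (12.6 CPM) lay below T or NK cells too, and their sham level rested on 8 UMIs. At day 7 against day 2, mesenchymal Pdgfa was -1.44, whereas it was 0.65 in injured tubule (difference 2.09; -0.34 with a stricter gate), 1.16 in the Fst Cryab cluster (2.60) and 0.66 in endothelium (2.10). Mesenchyme differed in make-up between these libraries, with 12 of 17 cells mural-gated at day 2 and 72 of 81 gated as fibroblasts at day 7, and the mural list at 14344 and 2186 CPM; with clusters in place of gates, where mesenchyme held 5 day 2 cells and no mural cluster, the ratio was -0.38. At reversal against day 7, Pdgfb was 2.53 in mesenchyme and -1.14 in proximal tubule, a difference of 3.67. The proximal tubule levels (16.3 and 6.83 CPM) were close to those of T or NK cells (13.2 and 6.22 CPM), which were lower after reversal too, and are not read as expression. The mesenchymal value was 0.41 without the mural-gated cells that carried Wt1 or Ncam1 in both libraries, and -0.15 without those of the reversed library alone.

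Members were also counted in cells outside every class. The 80 ungated cells of a cluster led by Tagln, Acta2, Rgs5 and Myl9 held 105 Pdgfa UMIs (137 CPM), 60 Pdgfb UMIs (78.2 CPM), 41 Pdgfd UMIs (53.5 CPM) and 63 Pdgfrb UMIs (82.1 CPM), with 22 Pdgfc UMIs (28.7 CPM) and Pdgfra at 0. Other ungated cells held members too: 124 ungated cells of a cluster led by Lcn2, Mt2, Umod and Spp1 had 108 Pdgfa UMIs (119 CPM).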

How the results depend on the processing

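No paired analysis was possible because each group holds 1 library. Alternatives gave 1407 values for 119 log2 ratios, of which 1289 lay within the counting interval of the reported ratio; of 799 values for 90 levels, 707 did. Shares of UMIs were less stable, with 318 of 397 values within the interval, and with per-cell means 27 of 51 moved out of it. The sign of the ratio changed in 94 values: in 17 where that interval was clear of 0, 10 of them with a mitochondrial limit of 20%, and in 3 where the reported ratio was at least 2-fold. Those 3 came with that limit: Pdgfa over all tubule classes, the Fst Cryab cluster included, was -0.63 at day 2 against sham (1.06 with the limit of 50%) and -0.10 after reversal against sham (1.10), and over all kept cells -0.052 after reversal against sham (1.34); their cause was not tested.

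Clusters in place of gates, which leave mesenchyme with fibroblasts alone and no sham cell, gave mesenchymal ratios of reversal to day 7 of 0.71 for Pdgfb (2.53) and 0.12 for Pdgfra (-0.86), and 92.8% of sham Pdgfrb in the Sfrp2 Ptn cluster (77.1%). Leaving out mural-gated Wt1 or Ncam1 cells of both libraries, an alternative chosen after seeing the data, gave 0.41 and -0.17 for those ratios (-0.15 and -0.12 with the 29 reversed cells alone left out), and 0 CPM of Pdgfb in mural-gated cells after reversal (111 CPM). At day 7, subtracting free RNA and taking per-cell means gave 309 and 315 CPM for mesenchymal Pdgfra (255), 351 and 352 CPM in fibroblasts (289.6), and 79.7% and 60.03% of Pdgfrb in mesenchyme (68.8%), which was 76.4% with the 2 unnamed clusters left in their gated class. A gate of 4 markers put 56.8% of day 7 Pdgfb in phagocytes (52.9%). A pseudocount of 10 CPM gave 0.91 for phagocyte Pdgfb at day 7 against day 2 (1.30), -0.91 for endothelial Pdgfd at reversal against sham (-1.03), and 0.70 and -0.64 for proximal tubule Pdgfb at day 2 against sham (1.32) and at reversal against day 7 (-1.14), all short of 2-fold. Thinning took mesenchymal cells with both receptors at day 7 from 60.5% to 8.64%, and 10 reads in place of 1 took Smart-seq2 wells with Pdgfb from 236 to 57.

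Other scalings shifted the median of all genes by over 0.1 in some classes, by 0.37 (TMM, day 2 against sham) in the Fst Cryab cluster, -0.32 in proximal tubule and -0.14 (reversal against day 7) in mesenchyme, and by no more than 0.1 in endothelium. Counts of genes at least 2-fold apart depend on the UMI minimum and the pseudocount: with minimums of 10 and 1 UMIs and with 10 CPM, endothelium at day 2 against sham had 1216, 4121 and 287 in place of 454, endothelium at reversal against sham 1589, 3523 and 368 in place of 774, and mesenchyme at reversal against day 7 2069, 5112 and 603 in place of 992. Endothelium at day 7 against day 2 had 1571, 3438 and 357 in place of 830, at reversal against day 7 780, 1838 and 132 in place of 342, and phagocytes at day 2 against sham 4198, 5626 and 1300 in place of 2583. With 10 CPM, phagocytes at day 7 against day 2 had 375 in place of 1350 and at reversal against day 7 87 in place of 393. Among the pathway list counts the report gives for single comparisons there were 5 in place of 3 in endothelium at day 2 against sham and 11 in place of 7 in phagocytes there with a minimum of 10, and, with 10 CPM, 4 in those phagocytes and 1 in place of 3 in endothelium at day 7 against day 2. For this list in proximal tubule, 10 CPM gave 2 in place of 8, 2 in place of 7, 1 in place of 3 and 4 in place of 8 in the order of the report, and TMM 5 and 4 in the first 2; T or NK cells at day 7 against day 2 had 2 in place of 5 with TMM, 10 CPM or mitochondrial UMIs left out. Few mesenchymal and sham phagocyte cells, pooled mice and single libraries limit every time comparison.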
